A study of Mus musculus with 6 samples.

Results

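Proteasome genes were taken as those whose name begins with Psm, a letter from a to g and a number. The 3 immunoproteasome subunits, Psmb8, Psmb9 and Psmb10, were left out of this set and are given as a comparison. The rule matched 46 genes read by 75 probes, out of 27376 gene names and 41174 probes on the array. Of these, 45 genes encode a subunit, an activator, an inhibitor or an assembly factor of the proteasome. The other one, Psmc3ip, is a cofactor of meiotic recombination that is matched by its name alone, and it was kept out of every count and median that follows. Each gene was read by its brightest probe, the one with the highest mean over the 6 arrays, and 44 of the 45 genes were tested. Psmb11, a subunit of the thymic cortex, was not well above background on enough arrays to be tested.

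Gene expression was measured in iTreg cells of 6-week-old mice, labelled as C57BL/6, in groups of 3: miR-31 fl/fl CD4Cre mice (cKO) and their miR-31 fl/fl controls. Naive CD4+ T cells, sorted from spleen as CD25-, negative for a Foxp3 reporter and high for CD62L, were cultured for 4 days on anti-CD3 (5 μg/ml) with anti-CD28 (2 μg/ml), TGF-β1 (5 ng/ml) and IL-2 (40 ng/ml), and the methods give another IL-2 concentration. Both groups carried the floxed miR-31 allele, and only the cKO mice carried Cre, which the Cd4 promoter drives from the thymus onwards. The loss of miR-31 and the presence of Cre therefore cannot be told apart, and the arrays cannot show the deletion, since no probe is named for miR-31. The microRNA that was deleted is shown here by its RefSeq mature strands, with the seed (bases 2 to 8) in capitals, because its absence defines the cKO group. On GRCm38.p6 they lie on the minus strand at chr4:88910614-88910635 (5p) and chr4:88910577-88910599 (3p).
mmu-miR-31-5p: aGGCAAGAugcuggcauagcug
mmu-miR-31-3p: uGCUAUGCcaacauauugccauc

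The proteasome degrades proteins tagged with ubiquitin. Its core is a barrel of alpha and beta rings, and the beta rings hold the proteolytic sites. A regulatory cap sits on the barrel: the base unfolds substrates with a ring of ATPases, and the lid removes their ubiquitin. Alternative activators open the core without that cap, and dedicated chaperones build each part. In activated T cells the proteasome supports growth and division, and NF-κB signalling depends on it.

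Values are log2 signals relative to each array's 75th percentile, and a fold change is the cKO mean minus the control mean on this log2 scale. The 6 arrays held 49.3% to 57.7% of spots well above background and no saturated spot. Correlations across tested probes (Pearson's r) were 0.974 to 0.985 among cKO arrays, 0.984 to 0.989 among control arrays and 0.948 to 0.984 between genotypes. The 3 cKO arrays and control array 1 shared a slide, and control arrays 2 and 3 lay on another, so slide and genotype are partly confounded. All 6 T cell markers and all 5 Treg markers were well above background on every array. Foxp3, the defining factor of Treg cells, read 3.16, 3.12 and 2.45 on cKO arrays 1 to 3 and 3.42, 3.42 and 3.76 on control arrays 1 to 3, without overlap between the groups (adjusted p = 0.19 in limma). Of the 5 Treg markers, Foxp3 and Il2ra had negative log2 fold changes (−0.62 and −0.56) and Ctla4, Tnfrsf18 and Ikzf4 positive ones (0.94, 0.40 and 0.06). Ctla4 was higher on each cKO array than on each control array, and the summed linear level of the list was 171 to 195 on cKO arrays and 138 to 175 on control arrays.

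Most proteasome genes read lower in cKO iTreg cells than in control cells, by a modest amount that was carried mainly by 1 array. Of the 44 tested genes, 39 had a negative log2 fold change and 5 a positive one, where 55.2% of all tested probes were negative. Their median log2 fold change was −0.26, or 83.7% of the control signal, beside −0.04 over all 22281 tested probes. On single arrays, the median difference of the 44 genes from their control means was −0.05 on cKO array 1, −0.14 on cKO array 2 and −0.53 on cKO array 3. The same median over all tested probes was −0.02, −0.03 and −0.05. Thus cKO array 3 stood apart from the other two for these genes. In RNA from whole cultures, fewer cells of a type and less RNA per cell cannot be told apart.

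None of the 44 genes passed the threshold of 0.05 on the adjusted p (limma, Benjamini-Hochberg), which 0.242% of all tested probes passed. The methods' t-test also gave 0 after adjustment. Without adjustment, 8 genes were lower in cKO cells at p under 0.05 in limma and 0 were higher, where 11.4% of all probes passed on the low side and 11.5% on the high side. These 8 were Psma2, Psma5, Psma7, Psmd6, Psmd14, Psmg1, Psmg3 and Psmg4. Leaving out cKO array 1, 2 or 3 gave 14, 4 or 7 such genes, where 15.3%, 9.74% and 10.9% of all probes passed on the low side. Leaving out control array 1, 2 or 3 gave 1, 2 or 3, where 8.43%, 5.63% and 5.16% of all probes passed.

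In 19 of the 44 genes the cKO arrays all lay below the control arrays, where 20.7% of all probes did so. In 1 gene, Psmd8, the cKO arrays all lay above the control arrays, beside 15.9% of all probes. cKO array 3 was the lowest of the 6 arrays for 37 of the 44 genes, beside 35.2% of all probes. It lay below every control array for 40 genes (43.9% of all probes), against 28 genes for cKO array 2 (39.9%) and 23 for cKO array 1 (35.9%). The 3 control arrays were close together: the median SD of a gene was 0.05 among them and 0.30 among the cKO arrays. Over all tested probes these medians were 0.12 and 0.23.

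**Figure D1:**
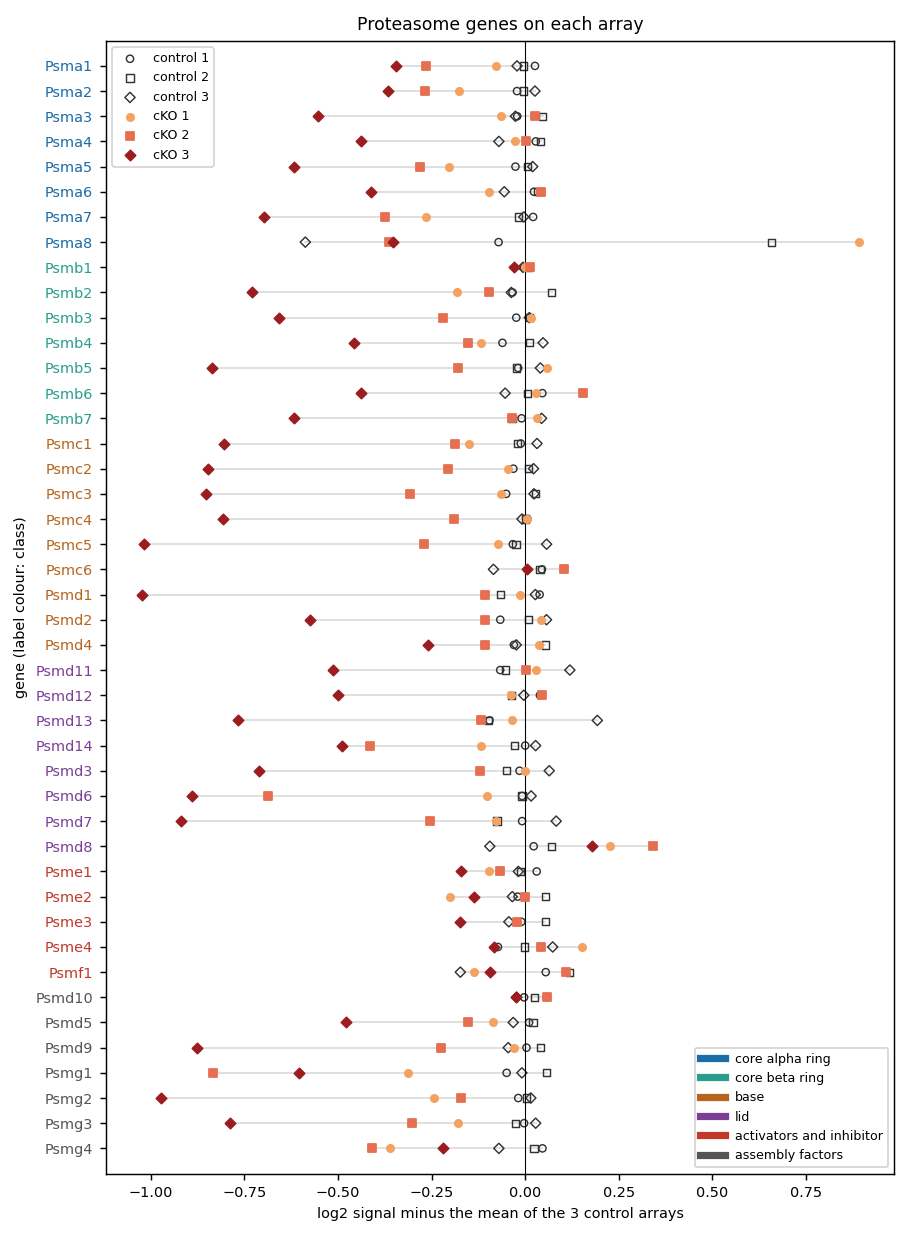
Each row is 1 of the 44 tested proteasome genes and each point 1 array, plotted as its log2 signal minus the mean of the 3 control arrays; open symbols are control arrays, filled symbols are cKO arrays, and label colours mark the classes. The control arrays cluster around 0, and cKO array 3 (dark diamonds) is the lowest of the 6 arrays in 37 rows.

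Without cKO array 3, 35 genes remained negative and 9 were positive, and the median log2 fold change was −0.09. Over all probes, 54.8% were then negative. The 4 genes whose sign turned were Psmb1, Psmb6, Psmd11 and Psmd12. At p under 0.05 in limma, 7 genes were lower without this array (10.9% of all probes) and 6 of them were among the 8 found with all arrays, namely Psma2, Psma5, Psma7, Psmg1, Psmg3 and Psmg4. Psmd8 then passed on the high side, beside 10.1% of all probes. Genes separated with all arrays stay separated when 1 is left out, and on the low side no further gene joined the 19, where 24.5% of all probes were then separated. On the high side Psmd10 joined Psmd8, beside 19.4% of all probes.

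When limma weighted the arrays by their spread, cKO array 3 received a weight of 0.173 and control array 2 one of 5.05. The median log2 fold change of the 44 genes was then −0.16. Under these weights 3 genes passed the adjusted threshold, beside 9.9% of all tested probes. They were Psmg1 (−0.73 ± 0.12 SE, adjusted p = 0.032), Psmg4 (−0.40 ± 0.07, adjusted p = 0.032) and Psma7 (−0.36 ± 0.08, adjusted p = 0.045). Within the slide that holds control array 1, the median over the 44 genes was −0.25, and 40 of them were negative. The fit with the slide as a term gives these same differences, since only control array 1 shared a slide with the cKO arrays. In that fit 0 genes were lower at p under 0.05 in limma, beside 2.65% of all probes.

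The alpha rings form the gate of the core, through which substrates enter. Of the 8 alpha genes, 7 had a negative log2 fold change, with a median of −0.21. On the low side 4 were separated and 3 passed an unadjusted p under 0.05 in limma, beside 20.7% and 11.4% of all probes. The median difference from control was −0.09, −0.27 and −0.42 on cKO arrays 1, 2 and 3. On these arrays 6, 4 and 7 of the 8 genes lay below every control array, beside 35.9%, 39.9% and 43.9% of all probes. Psma7 (NM_011969, probe at chr2:179771149-179771208 on mm9) read 5.61, 5.50 and 5.17 on cKO arrays 1 to 3 and 5.89, 5.85 and 5.87 on control arrays 1 to 3. Each cKO array lay below the narrow band of the control arrays. Its log2 fold change was −0.45 ± 0.14 (SE, 95% interval −0.78 to −0.11), with an adjusted p of 0.16 in limma. A dimmer probe of Psma7 had −0.18 ± 0.13, with overlap between the groups. Psma2 read 6.77, 6.68 and 6.58 on the cKO arrays and 6.93, 6.94 and 6.98 on the control arrays. On Psma2, as on the brightest probe of Psma7, the groups did not overlap, and cKO array 3 was only slightly below the other 2.
At the other end of the class, Psma8, a subunit of the testis, was dim and read −2.29, −3.54 and −3.53 on the cKO arrays and −3.25, −2.52 and −3.77 on the control arrays. The groups overlapped, with cKO array 1 the highest and control array 3 the lowest, and the log2 fold change was 0.06 ± 0.45.

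The beta rings hold the active sites. All 7 tested beta genes had a negative log2 fold change, with a median of −0.24. However, none passed an unadjusted p under 0.05 in limma, beside 11.4% of all probes on the low side. Only Psmb2 and Psmb4 were separated, beside 20.7% of all probes on that side. Their median difference from control was 0.02, −0.10 and −0.62 on cKO arrays 1, 2 and 3. This class thus was at the control level on cKO array 1 and far below it on cKO array 3. For all 7 genes cKO array 3 was the lowest of the 6 arrays, beside 35.2% of all probes.

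Psmb5, which carries the chymotrypsin-like site (NM_011186, chr14:55233161-55233220 on mm9), read 4.82, 4.59 and 3.93 on cKO arrays 1 to 3 and 4.75, 4.74 and 4.81 on control arrays 1 to 3. cKO array 1 was above all control arrays and cKO array 3 far below them. This gave a log2 fold change of −0.32 ± 0.23 (adjusted p = 0.42 in limma), and −0.06 without cKO array 3. Psmb7, with the trypsin-like site, read 4.03, 3.96 and 3.38 on the cKO arrays and 3.98, 3.96 and 4.04 on the control arrays. Its pattern was similar, with only cKO array 3 outside the control range. The log2 fold change was −0.21 ± 0.19 (adjusted p = 0.51), and −0.001 without cKO array 3. Psmb6, with the caspase-like site, read 5.03, 5.16 and 4.57 on the cKO arrays and 5.05, 5.01 and 4.95 on the control arrays. cKO array 2 was the highest of the 6 and cKO array 3 the lowest. The difference came to −0.09 ± 0.17 on the log2 scale (adjusted p = 0.77), and 0.09 without cKO array 3.

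Psmb2, which has no active site, was the lowest of the class. It read 1.77, 1.85 and 1.22 on the cKO arrays and 1.92, 2.02 and 1.91 on the control arrays, a log2 fold change of −0.34 ± 0.19 (adjusted p = 0.30 in limma). The groups did not overlap, and most of the difference lay on cKO array 3. Psmb1, also without an active site, read 4.93, 4.94 and 4.90 on the cKO arrays and 4.93, 4.94 and 4.93 on the control arrays. All 6 values lay within a few hundredths, and the log2 fold change was −0.01 ± 0.09 (95% interval −0.22 to 0.21). Probes of the same ring, such as those of Psmb5 and Psmb1, thus read differently on cKO array 3.

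The immunoproteasome subunits take the places of Psmb5, Psmb6 and Psmb7 in lymphoid cells. Psmb10, which replaces Psmb7, read 5.99, 5.92 and 5.68 on cKO arrays 1 to 3 and 6.38, 6.36 and 6.35 on control arrays 1 to 3. All 3 cKO arrays lay well below the control arrays. Its log2 fold change was −0.50 ± 0.12 (adjusted p = 0.12 in limma), and −0.41 without cKO array 3. Psmb8, which replaces Psmb5, read 6.51, 6.56 and 6.44 on the cKO arrays and 6.70, 6.70 and 6.59 on the control arrays. The groups did not overlap, and the log2 fold change was −0.16 ± 0.10. Psmb9, which replaces Psmb6, read 5.94, 6.16 and 6.24 on the cKO arrays and 6.38, 6.34 and 6.05 on the control arrays. The groups overlapped, and the log2 fold change was −0.14 ± 0.14. Over the 3 genes, the median difference from control was −0.31, −0.10 and −0.23 on cKO arrays 1, 2 and 3, although Psmb8 and Psmb10 were lowest on cKO array 3 and only Psmb9 was lowest on cKO array 1. With array weights, Psmb10 had a log2 fold change of −0.44 and an adjusted p of 0.028 in limma. Under these weights 9.9% of all tested probes passed the adjusted threshold.

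The base threads substrates into the core. Of its 9 genes, 8 had a negative log2 fold change, with a median of −0.37. On the low side 4 were separated and none passed an unadjusted p under 0.05 in limma, beside 20.7% and 11.4% of all probes. The median difference from control was −0.01, −0.19 and −0.81 on cKO arrays 1, 2 and 3. For 8 genes cKO array 3 was the lowest array, beside 35.2% of all probes. Psmc5, an ATPase of the ring, read 4.04, 3.85 and 3.10 on the cKO arrays and 4.08, 4.09 and 4.17 on the control arrays. cKO array 1 was just below the control arrays and cKO array 3 about 1 log2 unit below them. The log2 fold change was −0.45 ± 0.25 (adjusted p = 0.30), and −0.17 without cKO array 3. Psmc6, another ATPase of the same ring, read 5.32, 5.42 and 5.32 on the cKO arrays and 5.36, 5.36 and 5.23 on the control arrays. The groups overlapped and the log2 fold change was 0.04 ± 0.10. Psmd1, a scaffold of the base, read 2.72, 2.63 and 1.71 on the cKO arrays and 2.77, 2.67 and 2.76 on the control arrays, again with only cKO array 3 far off. Psmd4, a ubiquitin receptor, had a log2 fold change of −0.11.

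Of the 8 lid genes, 7 had a negative log2 fold change, with a median of −0.29. Separated genes numbered 3 on the low side and 1 on the high side, beside 20.7% and 15.9% of all probes. The median difference from control was −0.04, −0.12 and −0.61 on cKO arrays 1, 2 and 3. Psmd6 (NM_025550, chr14:14946703-14946762 on mm9) read 3.77, 3.18 and 2.98 on the cKO arrays and 3.86, 3.86 and 3.89 on the control arrays. cKO arrays 2 and 3 both lay far below the control band and cKO array 1 slightly below it. Its log2 fold change was −0.56 ± 0.21 (adjusted p = 0.20 in limma). Psmd14, the deubiquitinase of the lid, read 4.33, 4.03 and 3.96 on the cKO arrays and 4.45, 4.42 and 4.47 on the control arrays, again without overlap. Its log2 fold change was −0.34 ± 0.13 (adjusted p = 0.20). The other tested probes of Psmd14 had −0.21 and −0.19, and on both of them the groups overlapped.
Psmd8 went the other way, with 4.58, 4.69 and 4.53 on the cKO arrays and 4.37, 4.42 and 4.25 on the control arrays. Every cKO array was above every control array, cKO array 3 included. The log2 fold change was 0.25 ± 0.10 (95% interval 0.00 to 0.50, adjusted p = 0.22 in limma).

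**Figure D2:**
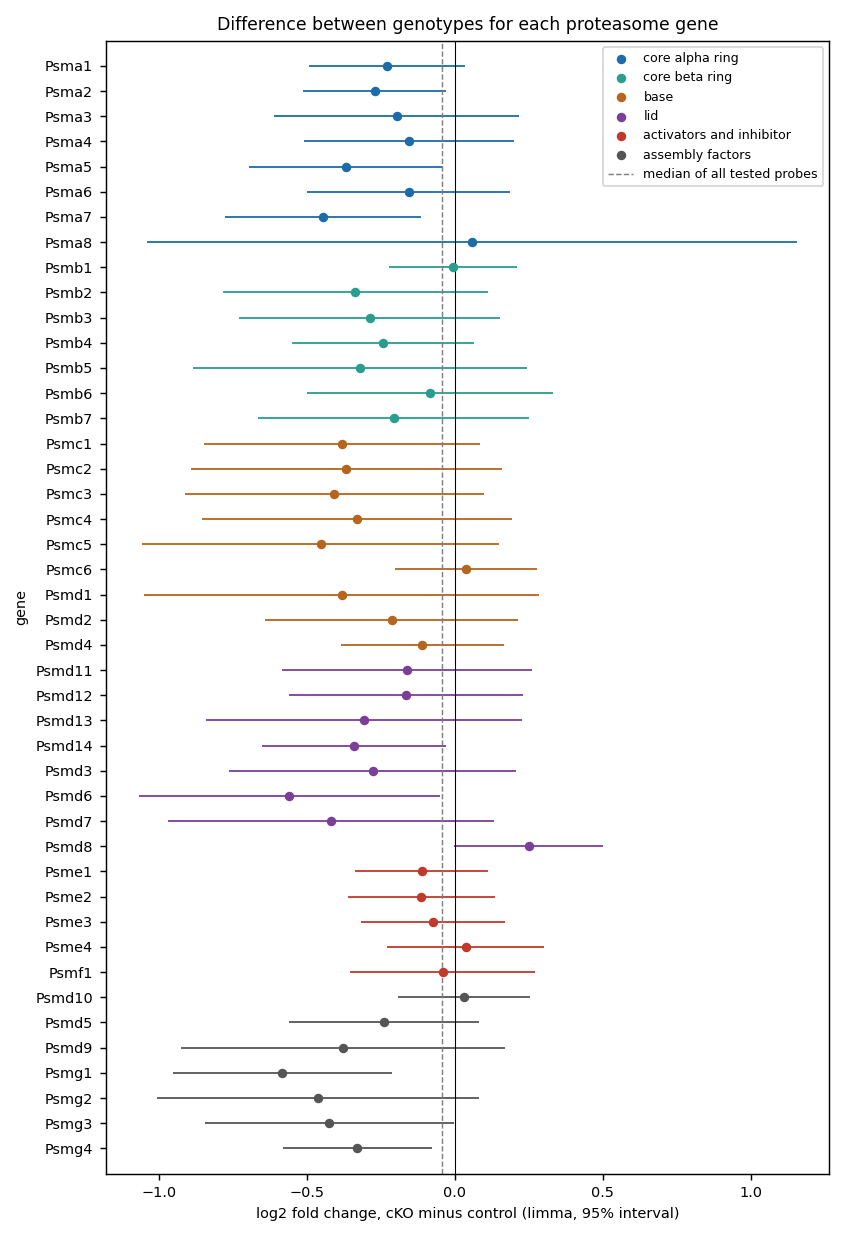
Points are log2 fold changes (cKO minus control, limma) of the 44 tested proteasome genes with their 95% intervals, coloured by class; the dashed line is the median of all tested probes, −0.04. Psmd8 is the highest at 0.25 and Psmg1 the lowest at −0.58, and the activators lie close to 0.

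The activators and the inhibitor had small differences. Of these 5 genes, 4 had a negative log2 fold change, with a median of −0.07. None passed an unadjusted p under 0.05 in limma, beside 11.4% of all probes on the low side and 11.5% on the high side. Only Psme1 was separated, beside 20.7% of all probes on the low side. The median difference of the 5 genes from control was −0.10, −0.0015 and −0.14 on cKO arrays 1, 2 and 3. Thus cKO array 3 stood out less than in the core, base or lid. Psme1 and Psme2 encode the partners of an interferon-inducible activator. Psme1 read 6.71, 6.74 and 6.64 on the cKO arrays and 6.84, 6.80 and 6.79 on the control arrays, a separated but small difference (−0.11 ± 0.09). Psme2 read 6.95, 7.14 and 7.01 on the cKO arrays and 7.13, 7.20 and 7.11 on the control arrays, with overlap and a log2 fold change of −0.11 ± 0.10. The 95% intervals ran from −0.34 to 0.11 and from −0.36 to 0.14. Psme3, a nuclear activator, read 1.66, 1.66 and 1.51 against 1.67, 1.74 and 1.64, and its log2 fold change was −0.07 ± 0.10. Psme4, another nuclear activator, read 4.06, 3.95 and 3.83 against 3.84, 3.91 and 3.98, and its log2 fold change was 0.04 ± 0.11. Both overlapped between genotypes. Psmf1, named for inhibiting the core in vitro, read 0.31, 0.56 and 0.36 against 0.50, 0.57 and 0.28, and its log2 fold change was −0.04 ± 0.13.

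The assembly factors had a median log2 fold change of −0.38, the lowest of the 6 classes except with the mean over a gene's probes or without control array 2, where the base was lower. Of the 7 genes, 6 were negative, 5 separated on the low side and 3 past an unadjusted p under 0.05 in limma. Of all probes, 55.2% were negative, 20.7% were separated on the low side and 11.4% passed that p on the low side. The median difference of the 7 genes from control was −0.18, −0.22 and −0.60 on cKO arrays 1, 2 and 3. Psmg1 to Psmg4 encode the chaperones that build the core, and all 4 were separated on the low side. Psmg1 (NM_019537, chr16:96201661-96203710 on mm9) read 1.84, 1.32 and 1.55 on the cKO arrays and 2.10, 2.21 and 2.14 on the control arrays. Here cKO array 2, not cKO array 3, was the lowest. The log2 fold change was −0.58 ± 0.15 (95% interval −0.95 to −0.21), and its adjusted p of 0.14 was the lowest of the 44 genes in limma. Psmg4 read 1.85, 1.81 and 2.00 on the cKO arrays and 2.26, 2.24 and 2.15 on the control arrays. On Psmg4, cKO array 3 was the closest of the cKO arrays to the control arrays. Its log2 fold change was −0.33 ± 0.10 (adjusted p = 0.17). Psmg2 and Psmg3 had log2 fold changes of −0.46 and −0.42, with cKO array 3 the lowest.

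Psmd5, Psmd9 and Psmd10 encode chaperones of the base. Psmd10 (gankyrin) read 0.80, 0.81 and 0.72 on the cKO arrays and 0.75, 0.77 and 0.73 on the control arrays, with overlap and a log2 fold change of 0.03 ± 0.09. Psmd5 and Psmd9 had log2 fold changes of −0.24 and −0.38. Psmc3ip, which only shares its name pattern with these genes, had a log2 fold change of −0.69 ± 0.21 (adjusted p = 0.17 in limma), with every cKO array below every control array.

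**Figure D3:**
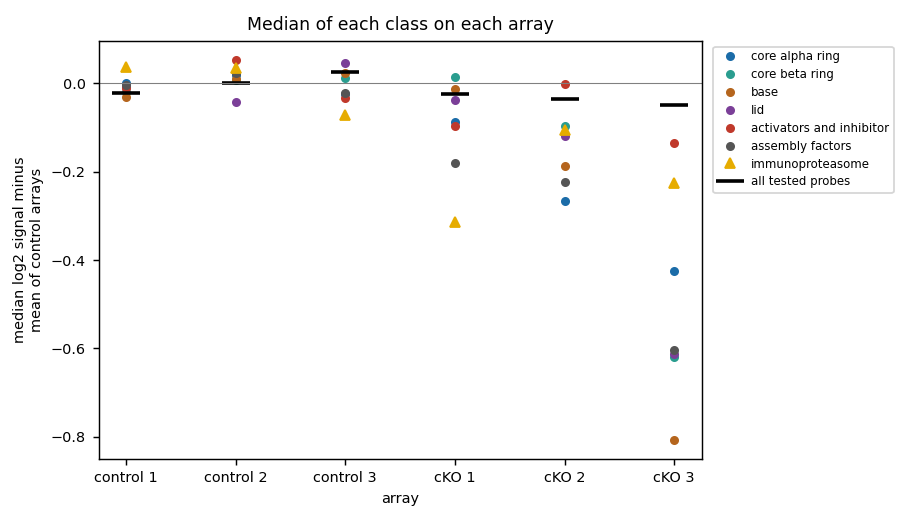
For each array, the points are the median, over the genes of a class, of the log2 signal minus the mean of the control arrays; triangles are the 3 immunoproteasome genes and black dashes all tested probes. On cKO array 3 the base is at −0.81 and the activators at −0.14, whereas the median of the immunoproteasome genes is lowest on cKO array 1, at −0.31.

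A second probe was available for some genes. For 18 of the genes more than 1 probe was tested, and of their 23 other probes 18 had the same sign as the brightest probe and 5 the opposite sign. Psmc5 had a second probe at −0.55, Psmg2 one at −0.48, and Psmc4 one at −0.54 where its brightest probe had −0.33. By contrast, Psmc6 was at 0.04 on its brightest probe and −0.19 on the other, and Psma7 at −0.45 and −0.18. The dimmest of 3 probes of Psmf1, well above background on 3 arrays, had −1.72 ± 0.66, against −0.04 and −0.18 for the other two.

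Other genes of the pathway were described from a list of 27 genes, which excluded the immunoproteasome. Of these, 19 had a negative log2 fold change and 8 a positive one, with a median of −0.12, 0 past the adjusted threshold in limma and 2 lower and 0 higher at an unadjusted p under 0.05, beside the 11.4% and 11.5% of all probes given above. The 2 were Adrm1, a ubiquitin receptor of the cap, and Uba6, a ubiquitin-activating enzyme. Adrm1, the lowest of the list, read 2.22, 2.16 and 1.47 on the cKO arrays and 2.53, 2.39 and 2.58 on the control arrays, a log2 fold change of −0.55 ± 0.22 (adjusted p = 0.21). Uba6 read −0.93, −0.91 and −1.20 on the cKO arrays and −0.49, −0.50 and −0.60 on the control arrays. On both genes all cKO arrays lay below all control arrays. The 9 shuttle and docking factors, which bring substrates to the proteasome or trim ubiquitin there, all had negative values with a median of −0.19. For all 9, cKO array 3 was the lowest of the 6, beside 35.2% of all probes. Without that array, 5 of the 9 were negative, with a median of −0.07. The 4 genes of the VCP segregase, which extracts ubiquitinated proteins, had a median of −0.15, or −0.0074 without cKO array 3. The ubiquitin genes and their activating enzymes had 3 negative and 3 positive values.

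The 4 regulators of proteasome gene expression all had positive log2 fold changes, with a median of 0.15 and none past p under 0.05 in limma, but 3 of them were negative, with a median of −0.07, under normexp background correction with the 75th percentile. Nfe2l1, the transcription factor that raises proteasome genes when proteolysis is short, read 2.57, 2.84 and 2.50 on the cKO arrays and 2.48, 2.45 and 2.34 on the control arrays. Each cKO array lay above each control array, and the log2 fold change of 0.21 ± 0.12 was the highest of the list. Ddi2 and Ngly1, whose products process that factor, had 0.19 and 0.03, and Nfe2l2, its relative, 0.11.

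Promoters were examined because most of the genes had log2 fold changes of the same sign. RefSeq windows of 250 bases before to 50 after a start site (GRCm38.p6) were found for 37 of the 45 genes. Of 8 letter strings counted on both strands, 3 are described, chosen after their counts were seen. The string TGACNNNGC, a core of sites bound by Nfe2l1 and its relatives, occurred in 6 of 37 genes (16.2%) and in 14.8% of 17492 protein-coding genes. The median log2 fold change was −0.12 for the 6 genes and −0.26 for the others with a promoter. The string CCGGAA, a core of ETS factor sites, occurred in 20 of 37 (54.1%) and in 20.9% of all, and the medians with and without it were −0.23 and −0.26. The string CCAAT occurred in 13 of 37 (35.1%) and in 42.3% of all. None of the 3 strings contains another. The other 5 strings were CCGGAAG, an extension of the second (14 of 37 genes, 12.9% of all), TGACTCANC (0 of 37, 1.19% of all), GCGCATGC (3 of 37, 3.94% of all), a longer palindrome around that string (1 of 37, 0.246% of all), and GGTGACC (2 of 37, 4.68% of all). A match is a description of these letters and not evidence of a bound site.

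These windows are shown to set promoter letters beside genes with negative log2 fold changes and beside Psmc6, with the match in capitals. Psmc6 was at 0.04 ± 0.10 on its brightest probe and −0.19 on the other, so it does not stand for a higher gene. The first 3 hold the first string, on either strand, and the last 3 the second. On GRCm38.p6 they lie at chr14:54618024-54618051 (minus strand, Psmb5), chr14:45329588-45329615 (plus, Psmc6), chr5:123228150-123228177 (plus, Psmd9), chr16:95991013-95991040 (minus, Psmg1), chr14:14120974-14121001 (minus, Psmd6) and chr14:45329713-45329740 (plus, Psmc6). Psmc6, at 0.04, holds both strings, and Psmg1 and Psmd6, at −0.58 and −0.56, hold the second.
Psmb5: gtgaagttgTGACGTCGCggcgttgcca
Psmc6: cagccagtaGCTAAGTCAggcattgctc
Psmd9: tctagccggTGACCCCGCccacttccaa
Psmg1: ctcgcggcggaCCGGAAgctcttaggtt
Psmd6: cagagacgcgaCCGGAAgtcagactggc
Psmc6 (ETS core): aggcgggccagCCGGAAggggcggagcc

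Markers of other cells are given here because some of them did not overlap between the genotypes. Of 4 erythroid markers, 1 was tested, Hbb-b1, with a log2 fold change of 2.10 and every cKO array above every control array. Hba-a1, well above background on 2 arrays and not tested, went the other way. It read −5.14, −5.11 and −6.57 on the cKO arrays and −4.07, −3.80 and −3.32 on the control arrays, without overlap. The summed linear level of the erythroid list was 0.48 to 1.05 on cKO arrays and 0.19 to 0.38 on control arrays. Of 5 myeloid markers on the array 1 was tested, and their sums were 0.14 to 0.15 and 0.11 to 0.32. Of 3 B cell markers 1 was tested, with sums of 0.52 to 1.20 and 0.34 to 0.58. Of 4 epithelial markers 3 were tested, all with positive values, with sums of 1.30 to 1.95 and 0.81 to 0.90. The 2 CD8 T cell markers had negative values, with sums of 3.87 to 4.34 and 4.42 to 5.61. Within the T cell list, 2 genes had negative and 4 positive values, with sums of 193 to 238 and 175 to 187. Alas2, Emr1 and Krt8 were not well above background on any array, and Cd14, Lyz2 and Ms4a1 on 1 array each. The part of these cells in the proteasome values was not tested.

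**Figure D4:**
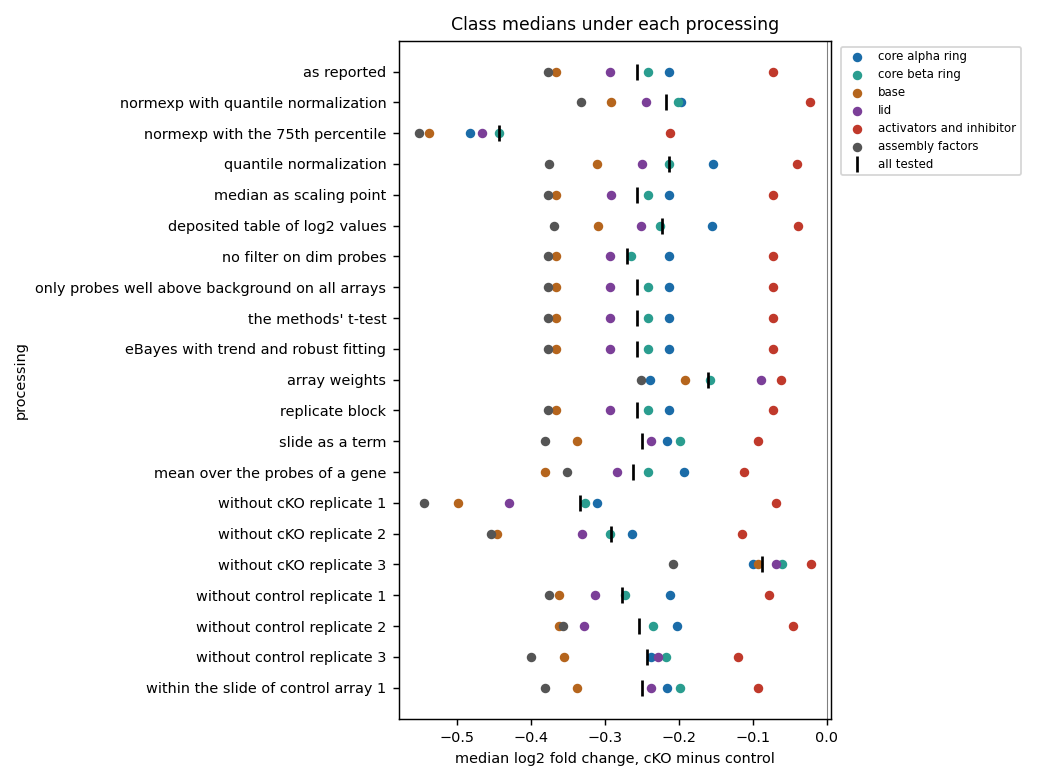
Each row is a way of processing the arrays, with points at the median log2 fold change (cKO minus control) of each class and a bar at the median of all tested proteasome genes. All medians are negative under every processing, and they are closest to 0 without cKO array 3, where the bar is at −0.09.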

How the data were processed

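Total RNA of 6 iTreg cultures, 1 per mouse, was labelled with Cy3 by the authors and read on 1-colour Agilent whole mouse genome arrays with 60-base probes. The deposited spot intensities are linear, background-subtracted by Agilent Feature Extraction (version 10.7.3.1 in the file headers, 9.1 in the submitters' processing notes) and not normalized between arrays. The authors also deposited a table of log2 values, whose normalization is not given in the sources used here, and it served as an alternative with 0 columns unassigned. Outlier spots (123 to 140 per array) were dropped, the spots of a probe averaged, and each array's 75th percentile (987 to 1148) subtracted on the log2 scale. Probes that stood well above background on 3 or more of the 6 arrays were fitted with limma 3.58.1 in R 4.3.3, without covariates, with Benjamini-Hochberg adjustment over all of them. The fit was tested on simulated data. Python 3.11.15, pandas 2.3.3, numpy 2.4.6, scipy 1.17.1 and matplotlib 3.10.9 made the tables and plots. With 3 arrays a group, the smallest 2-sided exact permutation p is 0.10, and the number of arrays limits the precision.

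The genes, classes and lists were chosen with earlier results of these data known. Values per array were given for the active-site subunits, the activators and inhibitor, the immunoproteasome subunits and, in each class, the tested gene with the highest and lowest log2 fold change. Psma2, Psmd1, Psmd4, Psmd14, Psmg2 to Psmg4, Psmd5, Psmd9, Uba6, Ddi2, Ngly1 and Nfe2l2 were named after their values were seen. All 46 gene symbols matched RefSeq. Positions on mm9 are those of the array's annotation. Replicate numbers were not used to pair the samples in the main fit. One marker of the lists is not reported here.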

Additional observations from a re-analysis of the deposited data

How the results depend on the processing

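In 20 alternatives the median log2 fold change of all tested proteasome genes and of each of the 6 classes stayed negative. Not all of these could move the median. The methods' t-test, trend and robust fitting and the replicate block leave the group means as they are. Requiring probes above background on all 6 arrays kept the same 44 genes and so the same medians. The median as the scaling point shifts all genes alike, and it moved the median of all genes only from −0.2560 to −0.2557. The slide as a term and the comparison within the slide of control array 1 give the same medians. Leaving out single arrays moved the median between −0.33 and −0.09 for all genes, −0.31 and −0.10 for the alpha ring, −0.33 and −0.06 for the beta ring, −0.50 and −0.09 for the base, −0.43 and −0.069 for the lid, −0.12 and −0.02 for the activators and inhibitor, and −0.54 and −0.21 for the assembly factors. In each of these the value nearest 0 came without cKO array 3. With normexp and the 75th percentile, which moved the median of all probes to 0.11, it was −0.44 for all genes, −0.48 for the alpha ring, −0.21 for the activators and inhibitor and −0.55 for the assembly factors.

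The number of genes past the adjusted threshold in limma was 0 in every alternative except array weights, where it was 3. Genes lower in cKO cells at an unadjusted p under 0.05 numbered 3 with the median as the scaling point (8.32% of all probes), 2 without a filter on dim probes (5.64%), 2 with normexp and the 75th percentile (2.39%), 0 with the slide as a term (2.65%), and 1 to 14 when single arrays were left out. Genes higher in cKO cells at that p numbered 1 with array weights, normexp and quantile normalization, quantile normalization, the deposited log2 table, trend and robust fitting, the methods' t-test and with probes required to be above background on all 6 arrays, and 0 to 1 when single arrays were left out. On that side 11.5% of all probes passed in the main fit and 10.1% without cKO array 3. For the other settings this share is not given. Separated genes numbered 12 on the low side with the median as the scaling point. On the high side they numbered 2 with normexp and quantile normalization, quantile normalization and the deposited table, 0 with normexp and the 75th percentile, and 1 to 2 when single arrays were left out. Of all probes, 20.7% were separated on the low side and 15.9% on the high side in the main fit. Without cKO array 3 these shares were 24.5% and 19.4%, and for the other settings they are not given. The cause of the changes between settings was not tested.

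Among the genes given with values per array by rule, signs turned for the following. Psmb1 was 0.080 with normexp and quantile normalization, 0.055 with quantile normalization, 0.057 in the deposited table, 0.0028 with array weights and −0.015 to 0.0062 when single arrays were left out. Psme4 was −0.21 and Psmc6 −0.21 with normexp and the 75th percentile, and Psmd10 −0.020. Array weights gave 0.076 for Psmb6 and −0.47 for Psma8. Psmc6 was −0.0065 with the slide as a term, and the mean over a gene's probes gave −0.0044 for Psme4 and −0.076 for Psmc6. When single arrays were left out, Psme4 ranged from −0.020 to 0.098, Psmf1 from −0.13 to 0.019, Psma8 from −0.36 to 0.39, Psmb6 from −0.20 to 0.091 and Psmc6 from −0.0039 to 0.061.

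Samples with the same replicate number did not deviate together (correlations of −0.14, 0.01 and −0.19). With 3 arrays a group, these values cannot show whether mice or cultures were paired by design. With the replicate block, 3 genes were lower at an unadjusted p under 0.05, beside 7.3% of all probes, and 0 passed the adjusted threshold in limma.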
